A study of Rattus norvegicus with 4 samples.

Results

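The clotting factors, fibrinogen, the enzymes of fibrinolysis and the serpins that hold them in check were compared between livers of thiamine-treated and untreated rats. The 39 genes were listed by name and looked up by symbol in the probe annotation of the array. Of these, 33 had a named probe and 31 were measured, out of 8985 genes measured in all. No named probe was found for F11, F13b, Kng1, Fga, Serpinc1 and Serpinf2, and their values were not analysed here. F13a1, a transglutaminase that cross-links fibrin, was near background on all 4 arrays with both of its probes. F3, tissue factor, was above background in untreated rat 1 only (7.53 on the log2 scale) and was left out of the comparison.

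The livers came from 4 male OLETF rats, an obese diabetic strain, and each was measured on a 1-colour CodeLink array of its own. The thiamine group had 0.2% thiamine (2 g per L) in its drinking water over 51 weeks, starting at an age of 4 weeks, and the untreated group had 0%. Both were killed at 55 weeks, fasted for 16 h, and the arrays cover 2 of the 8 rats that each group held. All rats compared here are OLETF, and the sources used here do not say which of them shared a cage. With 2 rats per group, the number of arrays sets how precise any difference can be.

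Hepatocytes make most plasma clotting proteins. Thrombin, the product of F2, turns fibrinogen into fibrin, and plasmin, the product of Plg, dissolves it again. Serpins are protease inhibitors that are cleaved by their target and trap it, although some members of the family, such as the hormone carriers Serpina6 and Serpina7, inhibit no protease. F8, Vwf, Thbd, Tfpi and Plat are known as products of endothelial cells. The liver label was borne out by 5 measured hepatocyte markers, of which 4 (Alb, Ttr, Tf and Ambp) were saturated on all 4 arrays. In these bulk samples, fewer cells of a type and less RNA per cell cannot be told apart.

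Upstream sequence of the members is described first, apart from their values. Windows of 250 bases before the start were taken from RefSeq (GRCr8), where 28 of the 39 genes matched with 30 windows. Motifs of 4 transcription factor families were searched on both strands: GTTAAT for an HNF1 half-site, TTGCNNAA for C/EBP, TTCNNNGAA for STAT and TGTTTAC for FOXA. The motifs, of factors with a textbook role in liver or acute phase genes, were chosen after the differences had been seen. The 3 windows below are shown for the serpins with the lowest differences, Serpina7 (chrX:107457682-107457931, minus strand) and Serpina3n (chr6:129088142-129088391, plus strand), and for the fibrinogen beta chain Fgb (chr2:170700876-170701125, minus strand), whose window held a match to each of the 4 motifs. They are written 5′ to 3′ on the strand of the gene, with the matches in capitals.
Serpina7: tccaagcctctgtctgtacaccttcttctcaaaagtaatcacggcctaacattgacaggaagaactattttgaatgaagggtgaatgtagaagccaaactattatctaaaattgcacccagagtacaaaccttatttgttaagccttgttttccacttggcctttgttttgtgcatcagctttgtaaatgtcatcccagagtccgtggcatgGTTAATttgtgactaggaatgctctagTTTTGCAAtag
Serpina3n: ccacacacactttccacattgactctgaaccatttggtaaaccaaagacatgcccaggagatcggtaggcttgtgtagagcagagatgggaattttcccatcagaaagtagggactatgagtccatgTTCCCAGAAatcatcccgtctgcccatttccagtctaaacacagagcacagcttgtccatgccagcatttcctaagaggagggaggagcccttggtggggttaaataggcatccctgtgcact
Fgb: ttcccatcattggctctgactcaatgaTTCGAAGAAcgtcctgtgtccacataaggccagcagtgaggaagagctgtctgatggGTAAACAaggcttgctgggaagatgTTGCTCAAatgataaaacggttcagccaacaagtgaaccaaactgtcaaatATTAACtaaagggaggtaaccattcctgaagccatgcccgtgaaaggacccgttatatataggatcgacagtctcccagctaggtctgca
In the Fgb window the STAT, FOXA, C/EBP and HNF1 matches began 223, 166, 141 and 90 bases before the start. The Serpina7 window held an HNF1 half-site 38 bases and a C/EBP match 11 bases before the start, and the Serpina3n window held a STAT match 123 bases before it. No matches overlapped each other in these windows.

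An HNF1 half-site was found in 36.7% of the member windows and in 6.45% of the 33469 windows of all genes. It was present for 10 of 28 genes (F13b, F2, Fga, Fgb, Hgfac, Plg, Proc, Serpina4, Serpina7 and Tfpi), always between 38 and 104 bases before the start. The C/EBP letters were in 33.3% of the member windows against 9.22% of all, the STAT letters in 20.0% against 7.67%, and the FOXA letters in 13.3% against 3.22%. A match to any of the 4 was found in 66.7% of the member windows and in 23.6% of all windows. These shares describe the letters in the windows and no binding. The windows of all genes were not limited to genes expressed in liver. Among the 8 measured genes with an HNF1 half-site, 2 were higher and 6 lower with thiamine, with a median difference of -0.08 on the log2 scale. Among the 13 measured genes whose windows lacked it, 6 were higher and 7 lower (median -0.0031). For C/EBP and for STAT, 2 of the 5 measured genes with a match were higher and 3 lower, and for FOXA all 3 were lower. The median was -0.05 for each of these motifs. Without a match, 6 were higher and 10 lower for C/EBP and for STAT (median -0.01 for each). For FOXA, 8 without a match were higher and 10 lower (median -0.0070).

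**Figure D1:**
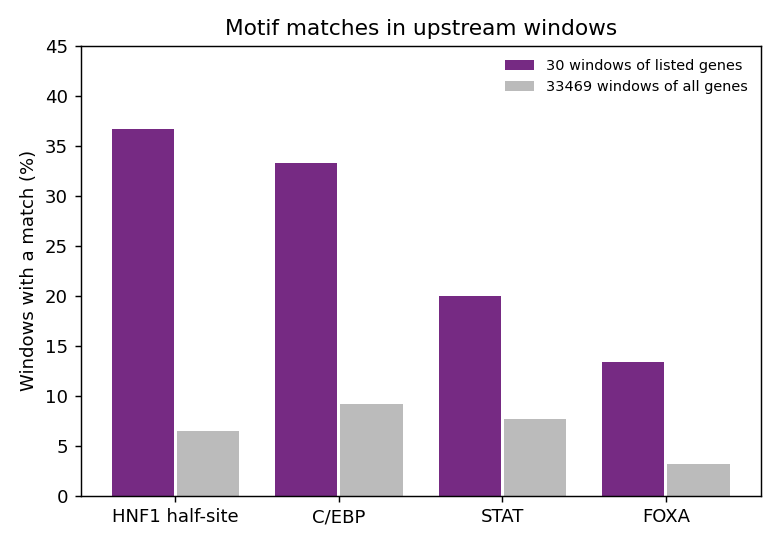
Share of upstream windows (%) with a match to each of 4 motifs, for the 30 windows of the listed genes (purple) and the 33469 windows of all genes (grey). Each motif was found in a larger share of the windows of the listed genes, with 36.7% against 6.45% for the HNF1 half-site.

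Differences between treated and untreated livers were small for nearly all of these transcripts, and none passed the test. All differences are thiamine less untreated, in log2 intensity. Thiamine livers had the higher level for 12 of the 31 measured genes and the lower one for 19, and the median difference was -0.04, where 50.6% of all measured genes were higher and the median was 0.0035. Leaving out untreated rat 1 or 2 moved the median of the 31 to 0.04 or -0.13. None of the 31 passed the test of limma at an adjusted p under 0.05, as none of all 18664 probes did (0% called). At an unadjusted p under 0.05 (limma) there were 2 of the 31, Serpina7 and F8, or 6.45%, against 6.89% of all genes. F8 passed the filter only through the thiamine group, so its p supports nothing further. The groups did not overlap for 10 of the 31 genes, or 32.3%, against 37.5% of all genes.

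A difference under 0.25 in size was found for 24 of the 31 genes, or 77.4%, against 73.4% of all genes. Only Serpina7 was over 0.5 in size. For 30 of the 31 genes the 95% interval of limma, not adjusted for the number of genes, lay within a 2-fold difference in either direction, as it did for 95.4% of all genes. The intervals do not show that the groups were equal. Those of F8, near background in both untreated rats, and of Serpina1, saturated on all 4 arrays, do not bound the true difference. The others hold for the background correction used here. With background-subtracted intensities the differences of the dim Serpina7 and Serpina5 were wider, at -1.03 and 0.44. The moderated SE, which limma draws towards the spread over all probes, lay between 0.18 and 0.25 (n = 2 per group).

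**Figure D2:**
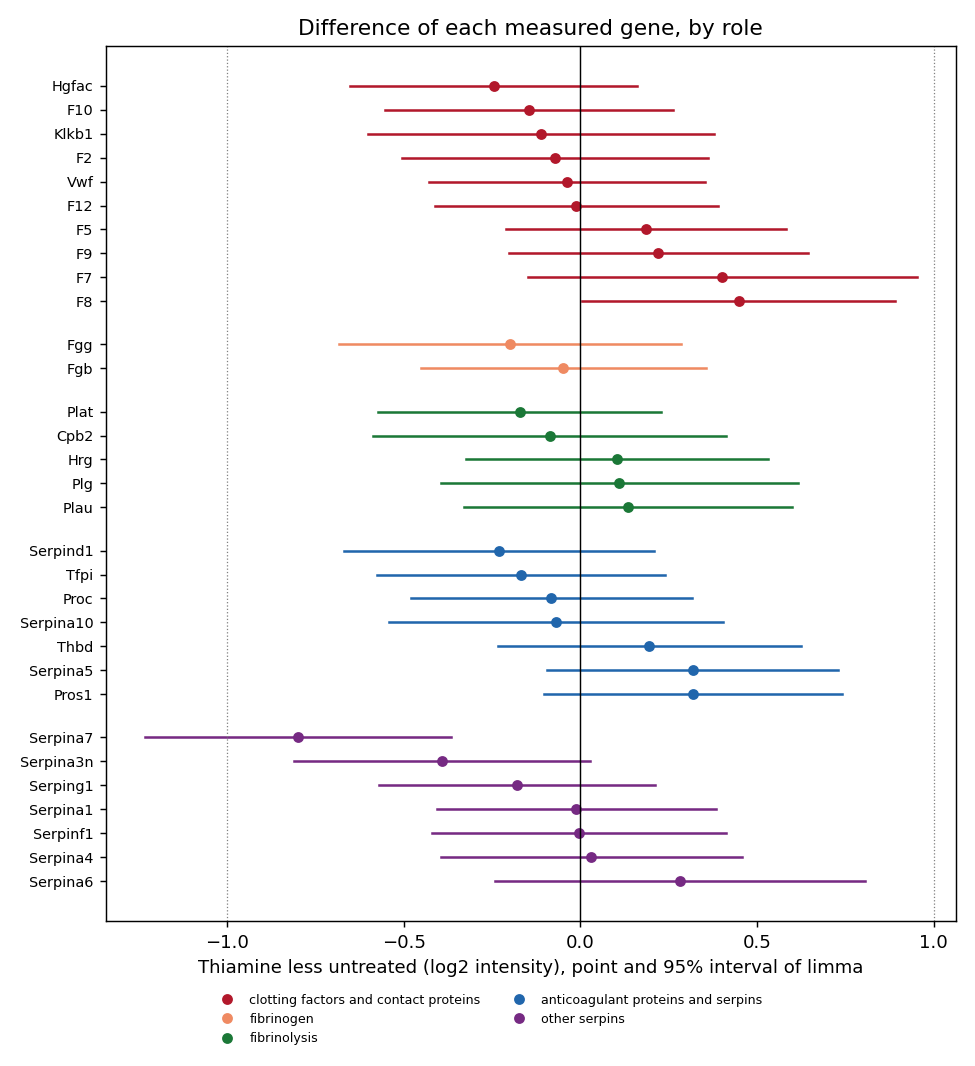
Thiamine less untreated (log2 intensity) for the 31 measured genes, ordered by role. Points are differences, lines are 95% intervals of limma, and dotted lines mark a 2-fold difference; only the interval of Serpina7 reached past 2-fold, and those of F8 (near background in the untreated rats) and Serpina1 (saturated) do not bound the true difference.

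Clotting factors and contact proteins, the proteases and cofactors that lead to thrombin, lay on both sides of 0. Of the 10 that were measured, 4 had a higher and 6 a lower level in the thiamine livers, and their median was -0.02. That median took the other sign without thiamine rat 1 (0.0010), thiamine rat 2 (0.08) or untreated rat 1 (0.02), and was -0.04 without untreated rat 2. F8, the cofactor missing in haemophilia A, was at 7.69 and 7.30 in thiamine rats 1 and 2, and at 6.94 and 7.16 in the untreated rats. Both untreated arrays had it near background, so only an approximate bound can be given. With each untreated array set to its lowest signal above background, F8 was 1.19-fold higher with thiamine. This is no strict bound: in untreated rat 2, F3 was near background at 7.31, above the 7.24 used there. F8 was also kept only through the thiamine group. The bound was 1.04-fold without thiamine rat 1 and 1.36-fold without thiamine rat 2. The adjusted p of limma was 0.73, with the untreated values as measured. A further probe of F8 was near background on all 4 arrays.

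Endothelial markers are given beside F8. Of 9 listed, 6 were measured, of which 5 were higher with thiamine and 1, Tie1, was lower, with a median of 0.35. Of the 5, 4 did not overlap between the groups, where 18.5% of all genes were higher without overlap. Tie1 did not overlap either, at -0.05, where 19% of all genes were lower without overlap. Cdh5, Clec4g and Eng had no named probe. The summed intensity of the 6 lay between 4773 and 5162 in the untreated rats and between 6126 and 6631 in the thiamine rats, and none of the 6 passed the test. The differences of the other endothelial products, Vwf, Thbd, Tfpi and Plat, lay between -0.17 and 0.20. The part of the endothelial markers in the value of F8 was not tested.

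F7, the protease that starts clotting together with tissue factor, was at 10.57 and 10.49 in the thiamine rats and at 9.72 and 10.54 in untreated rats 1 and 2. Untreated rat 1 alone was low, and the groups overlapped. The difference of 0.40 ± 0.25 (limma, adjusted p = 0.84) became -0.0072 when untreated rat 1 was left out, and 0.81 when untreated rat 2 was. F10, the next protease of the pathway and the direct neighbour of F7 in the genome, was at 14.05 and 14.06 in the thiamine rats and at 14.33 and 14.07 in the untreated rats. Its difference was -0.15 ± 0.18, of opposite sign to that of F7. F9, the protease missing in haemophilia B, was at 11.65 and 11.78 against 11.33 and 11.66 in the untreated rats, a difference of 0.22 ± 0.19. It shrank to 0.05 without untreated rat 1 and reached 0.39 without untreated rat 2.

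F5, the cofactor of F10, was at 12.65 and 12.78 in the thiamine rats and at 12.59 and 12.47 in the untreated rats. The groups did not overlap for this probe, with a difference of 0.19 ± 0.18. A further probe of F5 was at -0.01, and so of opposite sign. Hgfac, a protease related to F12 that activates hepatocyte growth factor, was at 11.86 and 11.79 against 12.19 and 11.96, a difference of -0.24 ± 0.18. It was -0.13 without untreated rat 1. The remaining factors were closer still: prothrombin F2 differed by -0.07, F12 by -0.01, the platelet adhesion protein Vwf by -0.04 and plasma prekallikrein Klkb1 by -0.11.

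The fibrinogen chains that could be measured did not separate the groups. Fgb was at 10.85 and 10.89 in the thiamine rats and at 11.03 and 10.81 in the untreated rats, a difference of -0.05 ± 0.18. The gamma chain Fgg was at 11.34 and 11.18 in the thiamine rats and at 11.17 and 11.76 in untreated rats 1 and 2. Untreated rat 2 was highest for Fgg and lowest for Fgb, so the chains did not order the rats alike. The difference of Fgg was -0.20 ± 0.22, and it became 0.10 without untreated rat 2, -0.49 without untreated rat 1 and -0.12 without thiamine rat 2. That of Fgb became 0.06 without untreated rat 1 and -0.16 without untreated rat 2. Fgg, Fga and Fgb lie side by side in the genome with 0 protein-coding genes between them.

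In fibrinolysis 3 of 5 measured genes lay above 0 and 2 below, and the median difference was 0.10. Plasminogen, Plg, was at 13.36 and 13.67 in the thiamine rats and at 13.71 and 13.11 in the untreated rats, with a difference of 0.11 ± 0.23. A second probe of Plg was at 0.31 and did not overlap between the groups. Tissue plasminogen activator, Plat, was at 9.03 and 9.07 against 9.32 and 9.13, a difference of -0.17 ± 0.18 without overlap, with values of -0.08 and -0.27 when untreated rat 1 or 2 was left out. The activator Plau (0.14 ± 0.21), the carboxypeptidase Cpb2 that shields fibrin from plasmin (-0.09 ± 0.23) and the plasminogen-binding glycoprotein Hrg (0.10 ± 0.19) overlapped. For all 5 genes the difference was smaller than the larger gap between the rats of a group. The median of these genes turned to -0.19 without untreated rat 2 and to -0.04 without thiamine rat 2, and was 0.24 without untreated rat 1.

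Among anticoagulant proteins and serpins 3 of 7 measured genes had higher and 4 lower levels, with a median of -0.07 that became 0.18 without untreated rat 2. Pros1, protein S, the cofactor of activated protein C, was at 12.48 and 12.34 in the thiamine rats and at 11.94 and 12.25 in the untreated rats. Both thiamine rats were above both untreated rats, and the difference was 0.32 ± 0.19 (limma, adjusted p = 0.83). Leaving out untreated rat 1 gave 0.16, and leaving out untreated rat 2 gave 0.48. Serpina5, the inhibitor of protein C, was at 7.94 and 8.02 against 7.80 and 7.53, also without overlap and also at 0.32 ± 0.19. Without untreated rat 2 it was at 0.18. Protein C itself, Proc, differed by -0.08 ± 0.18.

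Serpind1, heparin cofactor II, was at 13.60 and 13.79 in the thiamine rats and at 14.11 and 13.73 in the untreated rats. The groups overlapped, and the difference of -0.23 ± 0.20 was -0.04 without untreated rat 1, -0.42 without untreated rat 2 and -0.14 without thiamine rat 1. Thbd, the endothelial thrombin receptor that switches thrombin to activating protein C, was at 8.63 and 8.59 against 8.23 and 8.60, a difference of 0.20 ± 0.19. It came to 0.0068 or 0.38 when untreated rat 1 or 2 was left out, and the second probe of Thbd was at -0.17. Tfpi, the inhibitor of tissue factor and F7, differed by -0.17 ± 0.18, and Serpina10, the inhibitor that works with protein Z against F10, by -0.07 ± 0.21.

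The widest separation lay among the other serpins, of which 2 of 7 measured genes were higher and 5 lower. Serpina7, the thyroxine-binding globulin that carries thyroid hormone in plasma, was at 7.57 and 7.91 in thiamine rats 1 and 2. In untreated rats 1 and 2 it was at 8.65 and 8.44, so that both untreated rats were above both thiamine rats. The difference was -0.80 ± 0.20, or 1.74-fold higher in the untreated livers, with a 95% interval from -1.23 to -0.37 (unadjusted p = 0.0019, limma, adjusted p = 0.27). It did not pass over all probes. The spot of untreated rat 1 carried a quality flag, and the difference was -0.69 with flagged spots set to missing. Leaving out 1 rat gave values from -0.97 to -0.63.

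Serpina3n, an acute phase antichymotrypsin, was at 14.47 and 14.41 in the thiamine rats and at 14.99 and 14.67 in the untreated rats, a difference of -0.39 ± 0.19 (limma, adjusted p = 0.77). A second probe was lower as well, at -0.29, and neither overlapped between the groups. The spots of both probes carried a contamination flag in untreated rat 1, and without that rat the difference was -0.23. Serping1, the C1 inhibitor that also blocks F12 and kallikrein, was at 13.75 and 13.76 against 13.98 and 13.89. This is a difference of -0.18 ± 0.18, with the rats of each group closer together than the groups.

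Serpina6, the corticosteroid-binding globulin, was at 14.05 and 14.32 in the thiamine rats and at 14.25 and 13.56 in the untreated rats. Only untreated rat 2 was low, and the difference of 0.28 ± 0.24 was -0.07 without that rat, 0.63 without untreated rat 1 and 0.15 without thiamine rat 2. Kallistatin, Serpina4, differed by 0.03 ± 0.19 and Serpinf1, pigment epithelium-derived factor, by -0.0031 ± 0.19. Serpina1, the inhibitor of neutrophil elastase, was saturated on all 4 arrays at 15.12, 15.19, 15.22 and 15.11, so no fold is given for it. The median of these serpins was -0.01 and, with Serpina1 left out, -0.09. With Serpina1 kept, it was 0.02 without thiamine rat 1, 0.04 without untreated rat 1, -0.07 without thiamine rat 2 and -0.15 without untreated rat 2.

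**Figure D3:**
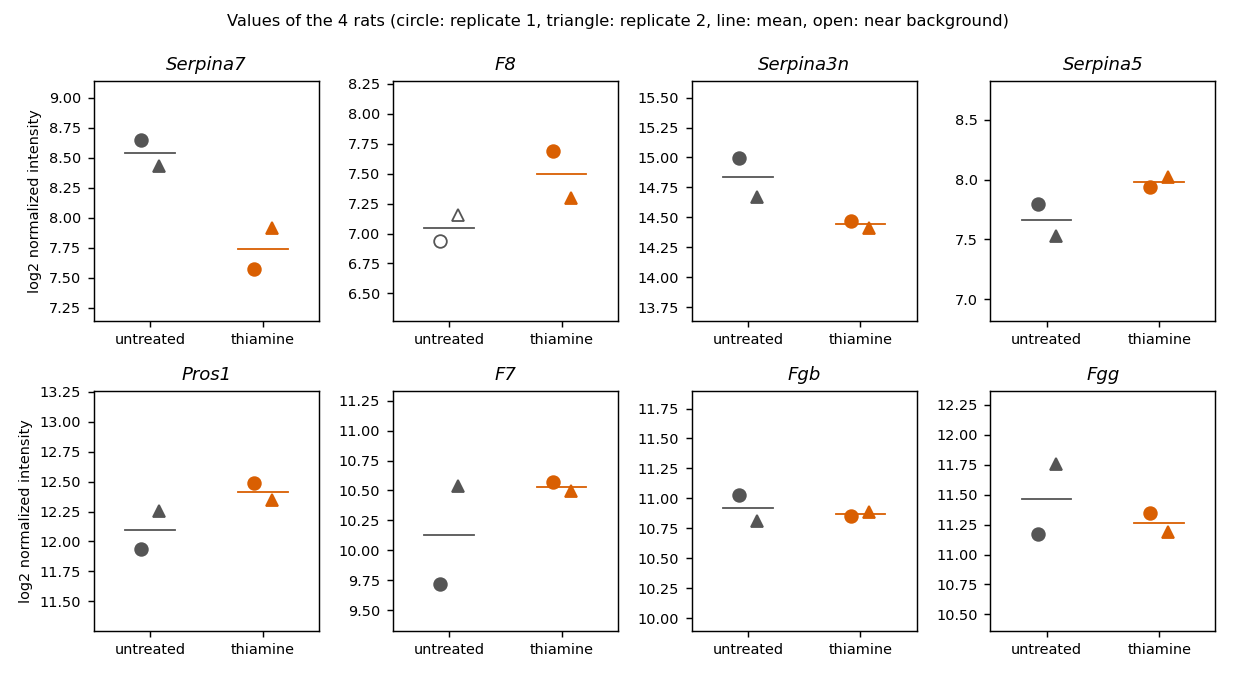
Log2 normalized intensity in each of the 4 rats for the 6 measured genes with the smallest unadjusted p and for the 2 measured fibrinogen chains, each panel spanning 2 log2 units. Serpina7 and Serpina3n were lower in both thiamine rats, F7 was low in untreated rat 1 alone (9.72), and the open points of F8 were near background.

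Serpins that lie together in the genome stood on both sides of 0. Serpina10, Serpina6, Serpina1, Serpina4, Serpina5 and Serpina3n follow each other on 1 chromosome with at most 5 protein-coding genes between neighbours in RefSeq. Their differences ran from -0.39 for Serpina3n to 0.32 for Serpina5. Serpina7 lies apart from them, on chromosome X.

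Gaps between rats of 1 group were set beside the differences between the groups. Most genes have the smaller difference even without an effect, since the larger of 2 gaps is set against a difference of means. For 24 of the 31 genes, or 77.4%, the difference between the groups was smaller than the larger gap between the rats of a group, against 75.5% of all genes. The median gap between the untreated rats was 0.28 for the measured members and 0.22 for all genes. Between the thiamine rats it was 0.10 for the members and 0.16 for all genes. Of the 10 measured serpins, 9 were higher in untreated rat 1 than in untreated rat 2, where this held for 52.0% of all genes. In thiamine rat 1, 2 of the 10 were higher than in thiamine rat 2, against 51.4% of all genes. Over all 31 measured members these counts were 21 for the untreated rats and 14 for the thiamine rats. The largest gap of any member was that of F7 between the untreated rats (0.82), followed by Serpina6 (0.69) and Cpb2 (0.66).

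**Figure D4:**
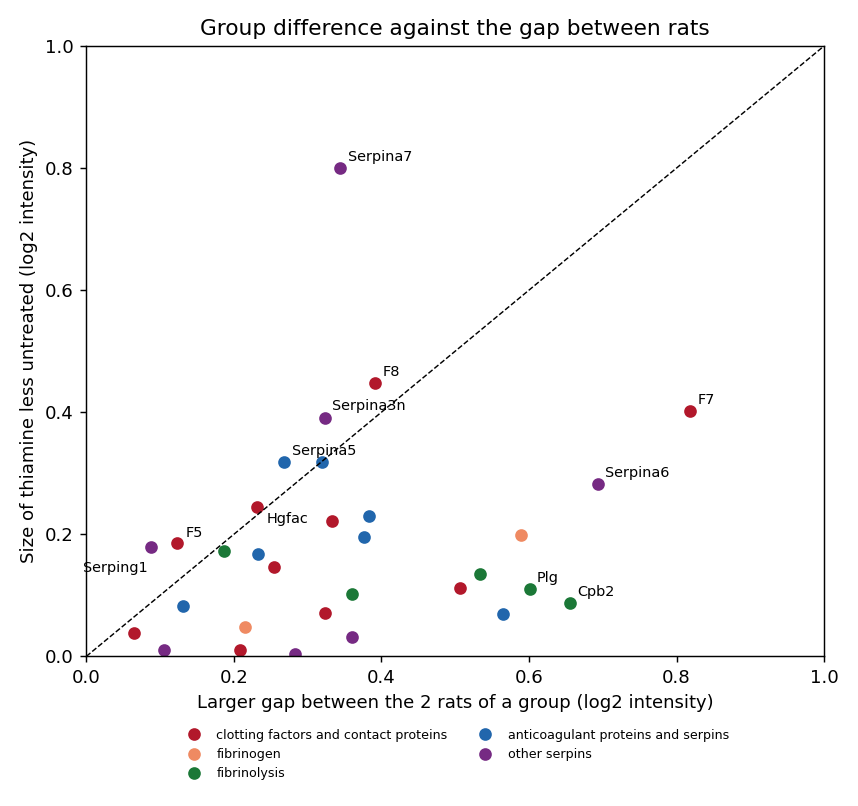
Size of thiamine less untreated against the larger gap between the 2 rats of a group, both in log2 intensity, for the 31 measured genes coloured by role. The dashed line marks equality; 24 genes lie below it, and Serpina7 lies farthest above it.

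Genes around this pathway were looked at through 4 related lists. Of their 36 measured genes 11 were higher and 25 lower with thiamine, and none passed the test of limma. An unadjusted p under 0.05 (limma) was found for 4 (11.1%), against 6.89% of all genes. A2m is among the 4, but it was kept only through the untreated group, so its p supports nothing further. The vitamin K cycle readies F2, F7, F9, F10, Proc and Pros1 for calcium binding. In the list of this cycle and carboxylation, 3 of 9 measured genes were higher and 6 lower. The list reaches beyond the enzymes of the cycle, since Furin, Gas6, Prrg1 and Prrg4 are among the 9. Vkorc1, the epoxide reductase that warfarin blocks, was at 12.47 in both thiamine rats and at 12.87 and 12.65 in the untreated rats, a difference of -0.29 ± 0.18. It was -0.18 without untreated rat 1. Its paralog Vkorc1l1 was at 9.61 and 9.80 against 9.30 and 9.19, or 0.46 ± 0.18 (limma, adjusted p = 0.63), and all 3 of its probes were higher without overlap. The paralogs thus stood on opposite sides, a difference that was not tested. The P450 enzyme Cyp4f1 was at 0.44 ± 0.19.

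Among receptors of clotting and fibrinolytic proteases 3 of 8 measured genes were higher and 5 lower. The thrombin receptor F2r was at 9.72 and 9.62 in the thiamine rats and at 9.32 in both untreated rats, a difference of 0.35 ± 0.18. The urokinase receptor Plaur was at -0.23 ± 0.18 (-0.12 without thiamine rat 2). The clearance receptor Stab2, a marker of sinusoidal endothelium, was at 0.27 ± 0.27, and it became -0.04 or -0.08 when thiamine rat 1 or untreated rat 1 was left out, and 0.58 or 0.62 when rat 2 of either group was. Procr, Anxa2, S100a10 and F2rl1 were near background.

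Other haemostasis proteins and inhibitors held the widest differences, with 2 of 14 measured genes higher and 12 lower. Lman1, the cargo receptor that carries F5 and F8 out of the endoplasmic reticulum, was at 11.15 and 10.82 in the thiamine rats and at 11.71 and 11.74 in the untreated rats. Both untreated rats were above both thiamine rats, with a difference of -0.74 ± 0.19 (limma, adjusted p = 0.30), or 1.67-fold higher in the untreated livers, and values from -0.91 to -0.58 when 1 rat was left out. Its partner Mcfd2 was at -0.01 ± 0.19. The protease trap A2m was at 7.42 and 7.33 in the thiamine rats and at 9.03 and 11.12 in the untreated rats, a gap of 2.08 between the latter. It was kept through the untreated group, since the spot of thiamine rat 1 carried flags for a signal near background and for contamination and only 1 of the thiamine arrays measured it. Its measured difference was -2.70 ± 0.48 (limma, adjusted p = 0.22) and -1.66 without untreated rat 2. With either untreated rat left out it passed the test (adjusted p = 0.042 without rat 2), but the spread then comes from the thiamine pair alone, moderated by limma. It also passed with the replicate number as a block (limma, adjusted p = 2.68e-07), at the same difference of -2.70. Limma draws the spread used there towards that of all probes, while the untreated rats lay 2.08 apart for A2m. The small p is therefore no strong evidence from these rats. The labels also do not say what the replicate number means. Fgl1, a fibrinogen-like liver protein, was at -0.39 ± 0.19.

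Of 5 further serpins 3 were higher and 2 lower, as measured. Serpinh1 and Serpina3c, with the limits given below, are among the 3. Serpina11 was at -0.38 ± 0.18 without overlap. The collagen chaperone Serpinh1 was at 0.50 ± 0.27 but at 0.03 without untreated rat 2, where it was near background, and at 0.96 without untreated rat 1. Serpinh1 was kept only through the thiamine group, so its difference supports nothing further. Serpina3c was saturated on 3 of the arrays, both thiamine arrays among them, and at 14.05 in untreated rat 2, so no difference is given for it.

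Of 10 macrophage markers 8 were measured, and all 8 were higher in the thiamine livers, with a median of 0.62, while Marco and Vsig4 had no named probe. The groups did not overlap for 5 of the 8, where 18.5% of all genes were higher without overlap, and none of the 8 passed the test. The summed intensity of the 8 was 27439 and 19202 in thiamine rats 1 and 2 and 18952 and 12218 in the untreated rats. Of 5 platelet markers with a probe, Gp9 and Treml1 were measured, at -0.13 and 0.06, and Pf4, Ppbp and Gp5 were near background. The median was 0.05 over 4 stellate cell and fibroblast markers and 0.20 over 2 red cell markers. Over 2 bile duct markers of opposite sign, Krt19 (0.34) and Epcam (-0.35), it was -0.0058. The part of all these cell types in the values above was not tested.

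**Figure D5:**
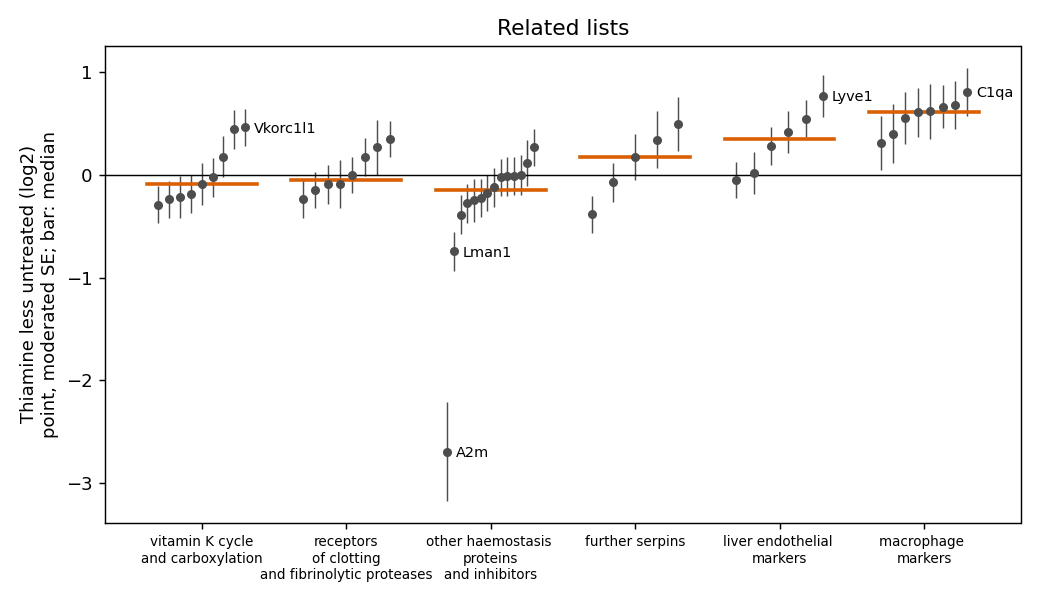
Thiamine less untreated (log2, point with moderated SE) for the measured genes of 4 related lists and of the endothelial and macrophage markers, with the median of each list as an orange bar. A2m (-2.70) and Lman1 (-0.74) lie lowest, and the 8 macrophage markers all lie above 0. A2m (near background in thiamine rat 1) and Serpinh1 (near background in untreated rat 2) are plotted as measured. So are Ahsg (saturated on all 4 arrays) and Serpina3c (saturated on 3), and all of these enter the medians.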

How the data were processed

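Each of 4 livers has a scanner report of a CodeLink rat array. Per the file headers the reports come from CodeLink Expression Analysis 5.0.0.31312 and give the intensity of each spot, its local background and a quality flag. The deposited value table holds intensity values that keep the order of the scanner values on each array, with column medians between 147.483 and 147.506. The sources used here do not say how the authors made it.

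The 35129 features were background-corrected by normexp (offset 50). The 1280 control features were left out and the log2 values of 33849 gene probes were quantile normalized. To be kept, a probe had to be above background in both rats of 1 group or more, and 18664 were. Masked spots were missing, and saturated or contaminated spots were kept. Between 18176 and 20071 gene probes per array were above background. Probes were named through the platform annotation, updated by gene identifier against RefSeq (GRCr8), or through the RefSeq accession in the reports as for Pros1. A probe shared by Kng1 and a related gene was left unnamed. A gene is given by its brightest kept probe.

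The test was that of limma 3.58.1 (R 4.3.3), two-sided, with p adjusted by Benjamini-Hochberg across the 18664 kept probes and called under 0.05; each probe had 2 residual degrees of freedom, or 10.8 once moderated. Simulated data with known changes were used to test the script. For an approximate bound, each array of the dim group was given its lowest signal above background, or the probe's own value if that was higher, before the means were compared. That signal is no detection limit, since other spots of an array can be near background above it. Values per rat were given by rule for the 14 members with the smallest unadjusted p, the fibrinogen chains, genes with a bound and genes whose probes disagreed, and up to 3 genes of each related list were named by the same ranking. The values per rat of F10, Plg and Serpina1, and the value of Mcfd2, were added outside this rule after values were seen. Arrays left out were removed after normalization; the other alternatives changed background correction, scaling, filter, flagged spots, probe choice, moderation, the replicate block and the value table. The members and lists were chosen with earlier results of these data known.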

Additional observations from a re-analysis of the deposited data

How the results depend on the processing

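Under 15 alternatives limma called none of the listed genes, of which between 1 and 5 had an unadjusted p under 0.05. Serpina7 kept its direction in all of them (from -1.03 to -0.63, adjusted p from 0.0919 to 0.9997). Of 416 values of 28 named genes, 7 turned direction, all with 1 rat left out. The alternatives of filter, moderation and block refit the same values, so the direction could not turn there. Leaving out 1 rat turned the direction of 6 genes. F7 ran from -0.0072 to 0.811, Fgb from -0.156 to 0.0596, Serpina6 from -0.065 to 0.629, Fgg from -0.493 to 0.0961, Stab2 from -0.0792 to 0.617 (-0.042 without thiamine rat 1) and the partly saturated Serpina3c, as measured, from -0.145 to 0.836. A2m, kept through the untreated group only, ran from -3.74 to -1.66 and was called with the replicate block. The measured value of F8, near background in the untreated rats, ran from 0.252 to 0.749 (0.744 with background-subtracted intensities, 0.749 in the deposited value table).

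Leaving out 1 rat, the test called between 1 and 65 of all probes. The median then ran from -0.131 to 0.042 over the listed genes, from -0.0405 to 0.0841 over clotting factors, from -0.0513 to 0.184 over anticoagulant proteins, from -0.19 to 0.24 over fibrinolysis, from -0.217 to -0.0298 over fibrinogen and from -0.148 to 0.042 over the other serpins. The listed genes that were higher numbered between 10 and 17. With median scaling the median of the other serpins was -0.165. With 75th percentile scaling it was -0.199, that of clotting factors -0.070, that of anticoagulant proteins -0.112, that of fibrinolysis 0.0248 (0.0593 with median scaling) and that of all listed genes -0.085. The cause was not tested. Leaving out the saturated Serpina1 was chosen after seeing the data.

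With the replicate number as a block the test called 126 probes, among them that of A2m but none of the 31 measured coagulation and serpin genes. That call of A2m rests on a spread that limma draws towards that of all probes. The labels do not say what a shared number means, and deviations from the group means correlated at -0.074 between rats of the same number. Signals near background limit F8, F3, F13a1, A2m and Serpinh1, and saturation limits Serpina1, Ahsg and Serpina3c.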
